A study of Mus musculus with 28 samples.

Results

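The genes of GABA synthesis and transport described here were *Gad1*, *Gad2*, *Slc32a1*, *Slc6a11*, *Slc6a13* and *Abat*. They were chosen by their function, and are 6 of the 21951 protein-coding genes among 55450 annotated genes. At each, the H3K4me3 peaks and H3K27me3 islands of A2a and D1 medium spiny neuron nuclei were read at the promoter and over the gene body. The data came from CnR (CUT&RUN, in which an antibody directs a nuclease to cut out the chromatin that carries a mark) on nuclei from the striatum of single mice. Nuclei were isolated by INTACT, with an antibody against a GFP-tagged nuclear membrane protein, and the series holds 28 samples, 8 of which were pooled into the 4 deposited lists.

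A2a nuclei came from mice of the genotype Sun1-sfGFP;A2a-cre. D1 nuclei came from Sun1-sfGFP;Drd1-cre animals. Both lines carried the same reporter allele, R26-CAG-LSL-Sun1-sfGFP, on a C57BL/6J background, and with it Sun1-sfGFP is made in each cell that has expressed Cre, so the nuclei are those in which the *Adora2a* or the *Drd1* driver was active. Males and females of about 8 weeks were used, and the labels give no treatment. For each cell type, 2 replicates with the Abcam antibody against H3K4me3 and 2 with the Active Motif antibody against H3K27me3 were pooled before peaks were called. Each group was therefore a single list without an error between replicates, and A2a could not be tested against D1. The labels of the D1 H3K27me3 samples conflict (D1 in title and cell type, A2a in the source name). The former was followed, and each comparison of H3K27me3 depends on that choice.

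Medium spiny neurons are GABAergic: they make GABA from glutamate with the 2 glutamate decarboxylases, load it into synaptic vesicles and release it in the pallidum, the nigra and locally. Released GABA is cleared by membrane transporters of the SLC6 family and is broken down in mitochondria by GABA transaminase. H3K4me3 marks promoters that are active or poised, and H3K27me3, laid down by the Polycomb repressive complexes, covers silenced developmental genes and genes of other cell types.

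The promoter sequences of the genes are shown because both marks were counted near the gene starts. At *Gad1* the sequence lies downstream of the annotated 5′ end of the gene, outside the window in which promoter marks were counted. RefSeq held promoter entries for 5 of the 6 genes, which run from 250 bases before to 50 bases after a RefSeq start site on GRCm38.p6, the assembly of the lists (mm10). *Abat* had no entry. To show its H3K4me3 peak, 200 bases around the summit of the A2a promoter peak, in intron 1, were read from the same genome. All are written 5′ to 3′ with each CG dinucleotide in capitals, since both marks are known to gather at CG-rich DNA.
Gad1 (chr2:70561879-70562178, plus strand): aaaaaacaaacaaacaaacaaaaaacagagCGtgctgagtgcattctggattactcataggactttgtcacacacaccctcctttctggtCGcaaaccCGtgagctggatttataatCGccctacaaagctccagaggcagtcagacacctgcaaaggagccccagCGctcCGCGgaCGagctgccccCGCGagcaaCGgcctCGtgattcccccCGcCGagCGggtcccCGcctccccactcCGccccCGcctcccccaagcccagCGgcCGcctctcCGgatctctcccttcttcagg
Gad2 (chr2:22622077-22622376, plus strand): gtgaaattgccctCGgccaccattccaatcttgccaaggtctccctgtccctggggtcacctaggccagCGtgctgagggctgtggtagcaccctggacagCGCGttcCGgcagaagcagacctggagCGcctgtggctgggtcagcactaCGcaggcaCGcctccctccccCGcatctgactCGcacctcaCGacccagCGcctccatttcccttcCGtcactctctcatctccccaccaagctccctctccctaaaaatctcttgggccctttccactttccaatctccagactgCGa
Slc32a1 (chr2:158610508-158610807, plus strand): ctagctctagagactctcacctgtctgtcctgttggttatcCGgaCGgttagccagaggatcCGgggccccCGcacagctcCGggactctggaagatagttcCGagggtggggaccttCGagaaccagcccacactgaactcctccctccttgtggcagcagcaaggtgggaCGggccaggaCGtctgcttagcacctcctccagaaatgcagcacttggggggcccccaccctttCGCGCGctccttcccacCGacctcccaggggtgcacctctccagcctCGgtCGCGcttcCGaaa
Slc6a11 (chr6:114130991-114131290, plus strand): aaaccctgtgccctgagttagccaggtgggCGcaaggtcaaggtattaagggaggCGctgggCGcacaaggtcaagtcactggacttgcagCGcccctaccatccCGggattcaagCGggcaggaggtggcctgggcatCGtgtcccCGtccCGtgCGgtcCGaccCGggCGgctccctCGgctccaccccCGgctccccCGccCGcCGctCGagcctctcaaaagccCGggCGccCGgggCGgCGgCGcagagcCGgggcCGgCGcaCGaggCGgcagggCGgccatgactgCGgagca
Slc6a13 (chr6:121300038-121300337, plus strand): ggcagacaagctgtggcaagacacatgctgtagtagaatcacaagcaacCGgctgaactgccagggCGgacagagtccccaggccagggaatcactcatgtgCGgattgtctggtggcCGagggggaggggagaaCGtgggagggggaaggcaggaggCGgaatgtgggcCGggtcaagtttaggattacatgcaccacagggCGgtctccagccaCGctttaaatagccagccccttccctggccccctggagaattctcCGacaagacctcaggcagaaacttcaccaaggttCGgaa
Abat, peak summit (chr16:8514160-8514359, plus strand): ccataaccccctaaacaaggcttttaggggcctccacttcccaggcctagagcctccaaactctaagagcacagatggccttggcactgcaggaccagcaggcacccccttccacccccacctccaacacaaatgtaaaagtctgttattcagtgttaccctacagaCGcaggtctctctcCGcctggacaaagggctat

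The 5 promoters differed in CG content. *Slc6a11* had 32 CG dinucleotides in 300 bases, which placed it at percentile 91.0 of the 32851 mouse promoters of the same length, whose median was 7. *Gad1* followed with 21, *Slc32a1* with 17, *Gad2* with 14 and *Slc6a13* with 11 (percentiles 76.0, 69.4, 64.5 and 59.5). *Slc6a13* has 2 further RefSeq start sites, downstream of the first, with 7 and 2 CG dinucleotides in their windows. Each of the 5 thus lay above the median of all promoters at its first start site. The windows were searched on both strands for TATAAA (13.6% of all promoters), GGGCGG (35.7%), CCAAT (37.4%) and TGACGTCA (1.79%). *Slc6a11* held GGGCGG 4 times, *Slc6a13* 2 times and *Gad1* once. *Gad2* held CCAAT 2 times. *Gad1* also held TATAAA once, on the reverse strand, and no match of one motif overlapped a match of another. *Slc32a1* had none of these letters in its window.

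At the promoter, from 2 kb upstream to 1 kb downstream of the annotated 5′ end of the gene (overlap of at least 1 bp), the genes fell into 5 patterns. *Gad2* and *Slc32a1* carried H3K4me3 in both cell types and H3K27me3 in A2a. *Abat* carried H3K4me3 alone and *Slc6a13* H3K27me3 alone, in both cell types. *Slc6a11* carried H3K27me3 in both and H3K4me3 in A2a. *Gad1* had neither mark at its outermost 5′ end in either list. H3K4me3 peaks were thus present at 4 of the 6 promoters in A2a and 3 in D1, where 58.2% and 55.8% of all protein-coding genes had one. H3K27me3 islands were present at 4 of 6 promoters in A2a and 2 in D1, against 21.6% and 15.3% of all protein-coding genes.

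The annotated 5′ end of *Gad1* comes from a short transcript and lies 8.97 kb upstream of the start of the principal, full-length transcript. Counting the start of any annotated transcript, *Gad1* gained a region of each mark in each list. Its A2a island met only the start of a processed transcript without a coding sequence, past the principal start. The counts then became 5 genes in A2a and 4 in D1 for H3K4me3 (62% and 59.4% of protein-coding genes), and 5 in A2a and 3 in D1 for H3K27me3 (24.2% and 17.4%). H3K27me3 was present in A2a and absent in D1 at 2 promoters, *Gad2* and *Slc32a1*, a pattern of 7.38% of protein-coding genes. H3K4me3 was present in A2a and absent in D1 at 1 promoter, *Slc6a11*, a pattern of 2.59%. The reverse of either pattern was found at 0 of the 6 genes. Its share over all protein-coding genes was not computed, so no direction is read from this count. The lists differed in length. The A2a lists held 22551 peaks and 60191 islands, and the D1 lists 20080 and 45760. With each A2a list shortened to as many of its strongest regions as the D1 list held, the A2a counts at the 5′ end did not change. The D1 lists were the shorter ones and stayed whole, so their counts could not change.

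**Figure D1:**
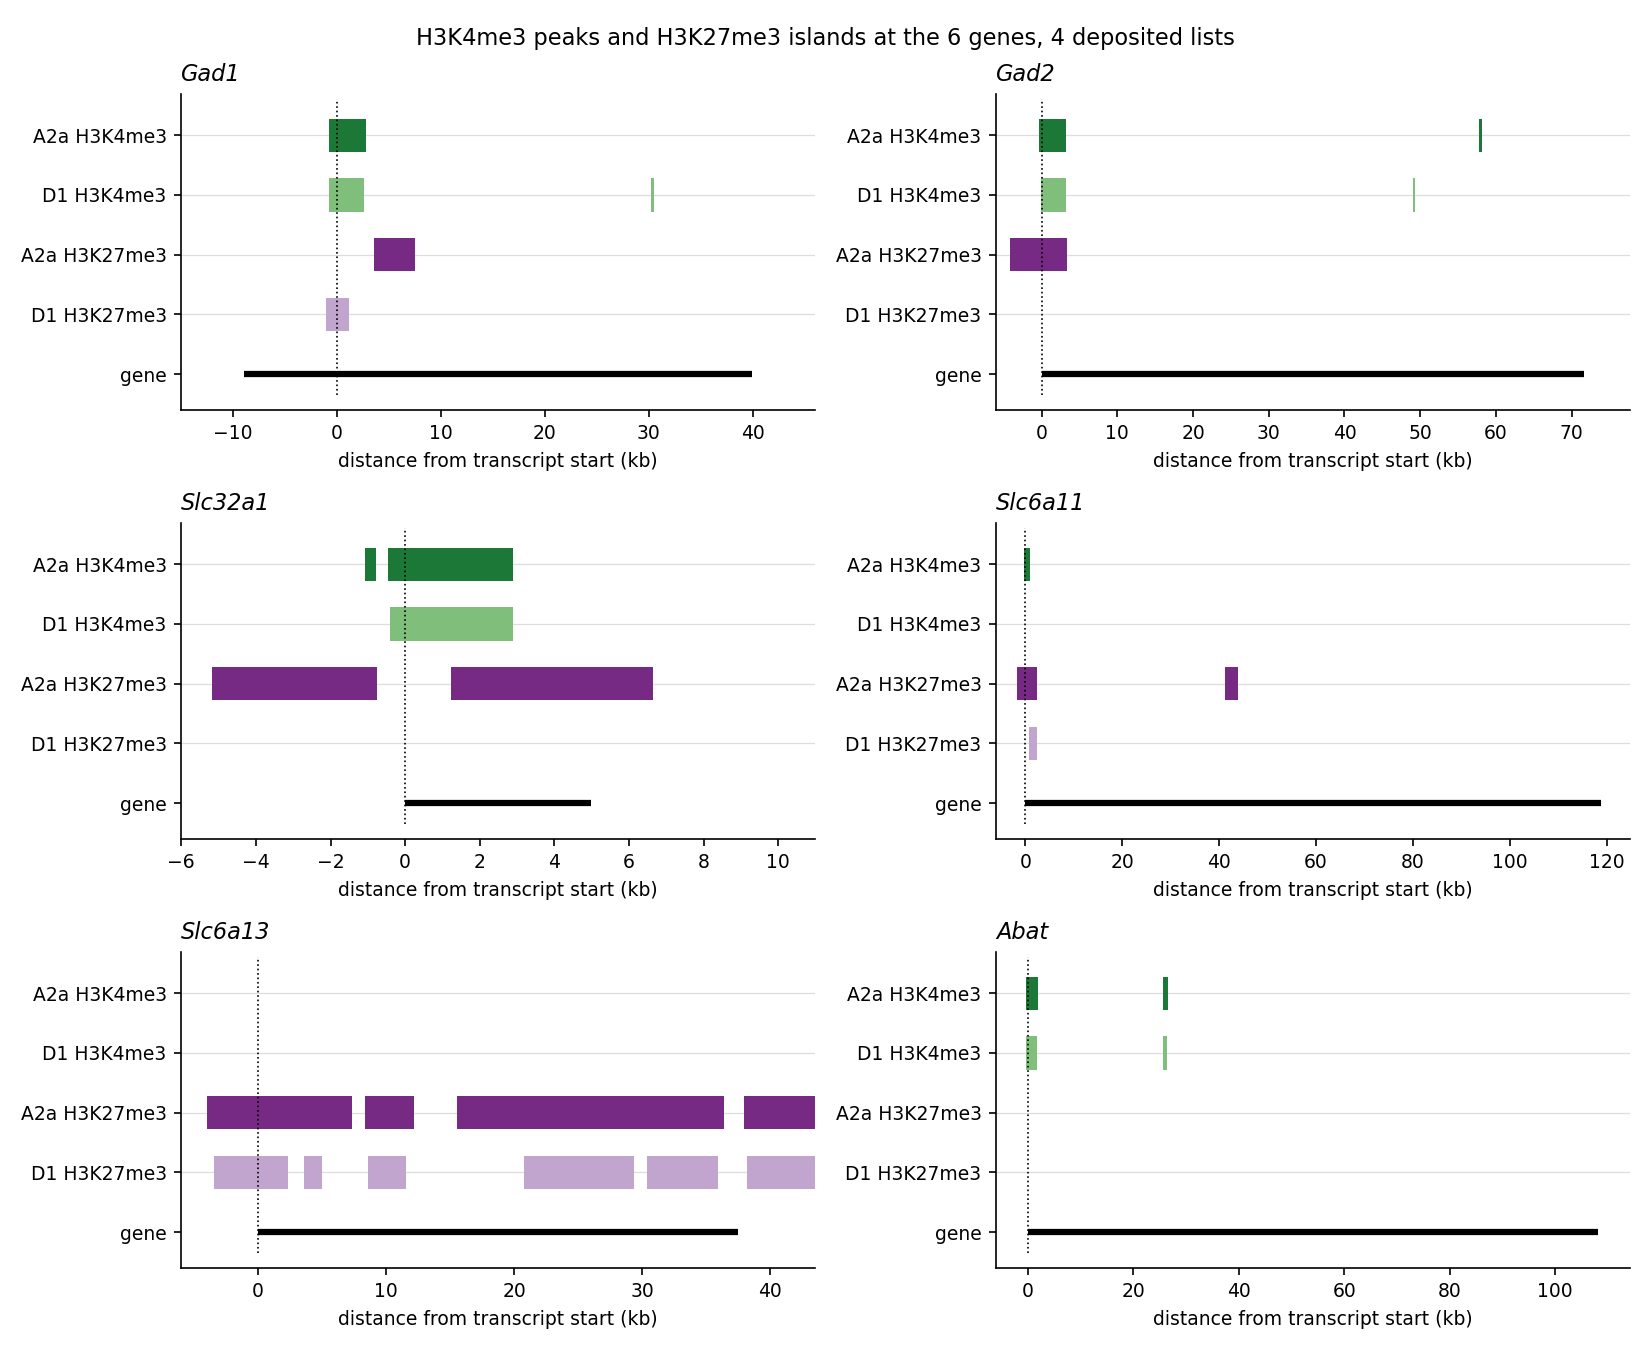
H3K4me3 peaks (green) and H3K27me3 islands (purple) of the A2a lists (dark) and the D1 lists (light) at the 6 genes, by distance in kb from the start of the principal transcript (dotted line), with the annotated gene as a black bar; each panel has its own scale and shows 6 kb on either side of the gene. *Gad2* and *Slc32a1* have islands in A2a alone, *Slc6a13* has islands and no peak, and *Abat* has peaks and no island.

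*Gad1* (chromosome 2, 70553072 to 70602014, plus strand) encodes the glutamate decarboxylase that makes most of the GABA of the brain. An H3K4me3 peak spanned the start of its principal transcript in both cell types, from 70561278 to 70564804 in A2a (3527 bp) and from 70561264 to 70564676 in D1 (3413 bp). The peaks shared 3399 bp, which was 96.4% of the A2a peak and 99.6% of the D1 peak. In A2a the peak had a fold enrichment over the local background of 2.98 and a −log10 q-value of 75.9. In D1 these were 3.15 and 59.0. Ranked within each list by −log10 q, so that lists of different depth can be set side by side, the peaks lay at percentiles 54.5 and 55.3. Their summits lay in intron 1, 0.803 kb (A2a) and 1.24 kb (D1) past the start. The *Gad1* peak was thus of middling strength and long in both lists. The D1 list also held a peak of 257 bp in intron 12 (−log10 q of 6.86), 30.2 kb past the start, which had no A2a counterpart. Of the 618 D1 peaks with a −log10 q within 10% of it, 83.2% overlapped an A2a peak.

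H3K27me3 at *Gad1* was called at different places in the cell types. The A2a island (70565601 to 70569600) was 4.0 kb long with 241 reads (95% interval 212 to 273, exact Poisson, counting error only) and began 3.56 kb past the start of the principal transcript, 0.797 kb after the end of the A2a H3K4me3 peak. By contrast, the D1 island (70561001 to 70563200) lay on that start, was 2.2 kb long with 64 reads (interval 49.3 to 81.7) and overlapped 56.8% of the D1 H3K4me3 peak. The islands were 2.40 kb apart. By reads they ranked at percentiles 57.7 of the A2a list and 11.6 of the D1 list, so the D1 island was among its weaker ones. Of A2a islands with a read count within 10%, 51.7% had a counterpart in D1, and of such D1 islands 63.4% had one in A2a.

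*Gad2* (chromosome 2, 22622205 to 22693874, plus strand) encodes the decarboxylase that is enriched at synaptic terminals. Its promoter peak ran from 22621870 to 22625386 in A2a (3517 bp, fold enrichment 3.78, −log10 q 105) and from 22622101 to 22625412 in D1 (3312 bp, fold enrichment 4.07, −log10 q 81.8). The peaks ranked at percentiles 63.6 and 68.4 by −log10 q and shared 3286 bp. Peak strength within the list was therefore alike, and above the median, in both. A weak peak lay deep in the gene in each list, at different places: 462 bp in intron 12 in A2a (−log10 q 3.13) and 268 bp in intron 11 in D1 (−log10 q 9.17). The A2a island at *Gad2* (22618001 to 22625600) was 7.60 kb long, held 462 reads (interval 421 to 506) and covered the whole promoter window and the whole H3K4me3 peak. It ranked at percentile 82.8 by reads and at percentile 43.4 by reads per kb (60.8, against a list median of 62.5). In D1 no island lay in the gene, and the nearest to the promoter was 122 kb away. Of the 3093 A2a islands with a read count within 10% of this one, 83.7% overlapped a D1 island. Most islands with such a read count were thus called in both lists, but length and reads per kb were not matched.

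*Slc32a1* (chromosome 2, 158610767 to 158615748, plus strand) encodes the vesicular GABA transporter VGAT, which loads GABA and glycine into synaptic vesicles. The gene has 2 exons over 4.98 kb, and its main H3K4me3 peak reached from −0.453 to 2.89 kb of its start in A2a and from −0.399 kb to the same base in D1. In A2a it was 3347 bp wide with a fold enrichment of 3.69 and a −log10 q of 118 (percentile 68.4). In D1 it was 3293 bp wide with a fold enrichment of 3.17 and a −log10 q of 50.6 (percentile 51.0). The peak thus ranked higher within the A2a list than within the D1 list, at nearly the same width. Both summits lay in intron 1, 1.89 kb (A2a) and 2.16 kb (D1) past the start. A second A2a peak of 302 bp (−log10 q 10.8) ended at −0.783 kb and had no D1 counterpart.

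In A2a, 2 H3K27me3 islands lay on either side of the *Slc32a1* start and left 2.0 kb between them. The upstream island (158605601 to 158610000) was 4.40 kb long with 227 reads (interval 198 to 259). The downstream island (158612001 to 158617400) was 5.40 kb long with 290 reads (interval 258 to 325), covered the 3′ part of the H3K4me3 peak and ran past the end of the gene. The downstream island covered 75.2% of the gene, and the upstream one ended before it. In all, 49.6% of the main H3K4me3 peak was under an island. These islands were long for their read counts, with 51.6 and 53.7 reads per kb against a list median of 62.5 (percentiles 10.5 and 16.7). In D1 the nearest island was 342 kb away. Of A2a islands with read counts within 10% of these, 48.5% and 61.8% had a D1 counterpart, lower shares than at the read count of the *Gad2* island.

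The 3 genes for making GABA and loading it into vesicles had wide H3K4me3 peaks in both cell types. Width was ranked after the widths had been seen. The peaks of *Gad1*, *Gad2* and *Slc32a1* ranked 141, 149 and 218 by width among the 22551 A2a peaks, and 114, 152 and 160 among the 20080 D1 peaks. All were over 3 kb, a width reached by 2.11% of all A2a peaks and 1.55% of all D1 peaks. The median width of all peaks was 1.21 kb in A2a and 1.17 kb in D1. Promoter peaks of protein-coding genes were wider, with medians of 1.62 and 1.52 kb. The fold enrichment of the peaks at the 3 genes was low, at percentiles 3.88 to 11.7 in A2a and 5.56 to 17.7 in D1. Wide peaks as a class had lower fold enrichment: the median was 4.09 in A2a and 3.81 in D1 for peaks over 3 kb, against 6.65 and 6.33 for all peaks. CG density in the 3 peaks was 4.72 to 5.39 per 100 bp in A2a, where the median peak had 3.99, and 4.71 to 5.51 in D1, where it had 4.49.

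**Figure D2:**
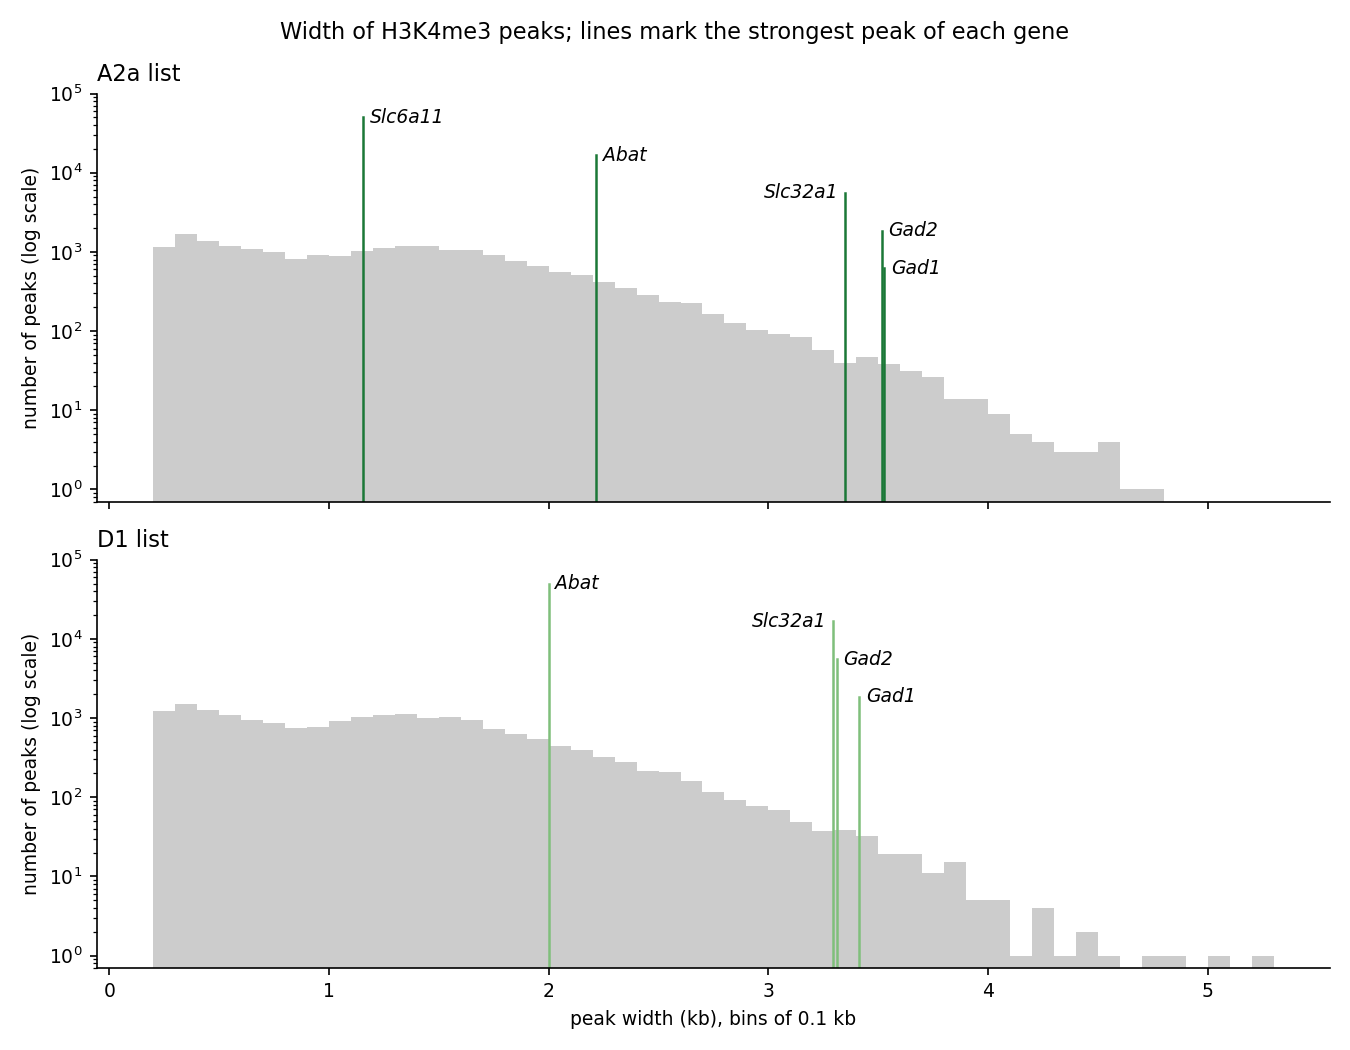
Number of H3K4me3 peaks (log scale) by peak width in kb, in bins of 0.1 kb, for the A2a and the D1 list; lines mark the strongest peak of each gene. *Gad1*, *Gad2* and *Slc32a1* lie in the right tail above 3 kb in both lists, *Abat* lies at 2.21 and 2.0 kb, and *Slc6a11* has a peak in A2a alone.

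*Slc6a11* (chromosome 6, 114131241 to 114249952, plus strand) encodes the GABA transporter GAT3, found mainly on astrocytes. The A2a list held a weak promoter peak (114131039 to 114132195) of 1157 bp with a fold enrichment of 5.48 and a −log10 q of 12.6, at percentile 23.3. D1 had none, and the nearest D1 peak was 70.7 kb from the promoter. Of A2a peaks with a −log10 q within 10% of it, 63.8% had a D1 counterpart. Its CG density of 7.69 per 100 bp (percentile 92.1) was the highest among the promoter peaks of the 6 genes, as was the CG count of its promoter sequence above. Islands were present in both lists, 4.0 kb with 283 reads (interval 251 to 318) in A2a and 1.60 kb with 66 reads (interval 51.0 to 84.0) in D1. Both islands ended at 114133600. Per kb of island, A2a had 1.72 times the reads of D1, close to the median of 1.80 over 38778 pairs of overlapping islands in the lists, which are not normalized for depth. A further A2a island of 2.80 kb with 157 reads lay 41.2 kb inside the gene, and 32.2% of A2a islands of its strength had a D1 counterpart.

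*Slc6a13* (chromosome 6, 121300227 to 121337733, plus strand) encodes GAT2, a transporter of GABA and taurine found in meninges, vessels, liver and kidney. No H3K4me3 peak lay on the gene in either list, the nearest being 25.5 kb away in both. H3K27me3 covered 85.2% of the gene in A2a, in 3 islands of 11.4, 3.80 and 20.8 kb with 834, 263 and 1449 reads. In D1 it covered 55.9% of the gene, in 5 islands of 5.80, 1.40, 3.0, 8.60 and 5.60 kb with 213, 53, 117, 325 and 210 reads. The whole promoter window was covered in both. *Slc6a13* thus had the most bases under H3K27me3 of the 6 genes in both lists. Each of its D1 islands overlapped an A2a island, and the ratio of reads per kb of A2a over D1 ran from 1.77 to 1.99 over these pairs (percentiles 47.0 to 70.1 of all shared pairs). The domain went on beyond the gene, where an island of 55.0 kb with 5067 reads in A2a and one of 8.60 kb with 419 reads in D1 began within 1 kb of its 3′ end and lay on the promoter of *Slc6a12*, the betaine and GABA transporter.

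*Abat* (chromosome 16, 8513429 to 8621568, plus strand) encodes GABA transaminase, which breaks GABA down to succinic semialdehyde. The promoter peak began at 8513169 in both lists. In A2a it was 2215 bp wide with a fold enrichment of 5.74 and a −log10 q of 109 (percentile 64.9), and in D1 it was 2000 bp wide with a fold enrichment of 5.59 and a −log10 q of 61.9 (percentile 56.9). The whole D1 peak lay within the A2a peak. A weaker intron 1 peak 25.6 kb past the start was also found in both lists, 991 bp wide (−log10 q 8.91) in A2a and 671 bp wide (−log10 q 6.04) in D1, so *Abat* was the gene of the 6 whose gene-body peak was called in both cell types. The promoter peak had fewer CG dinucleotides than those of the other genes, 2.75 per 100 bp in A2a and 2.95 in D1 (percentiles 34.5 and 31.5). No island lay within 55 kb of the gene in either list, and the nearest lay at 55.2 kb in A2a and at 55.4 kb in D1.

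**Figure D3:**
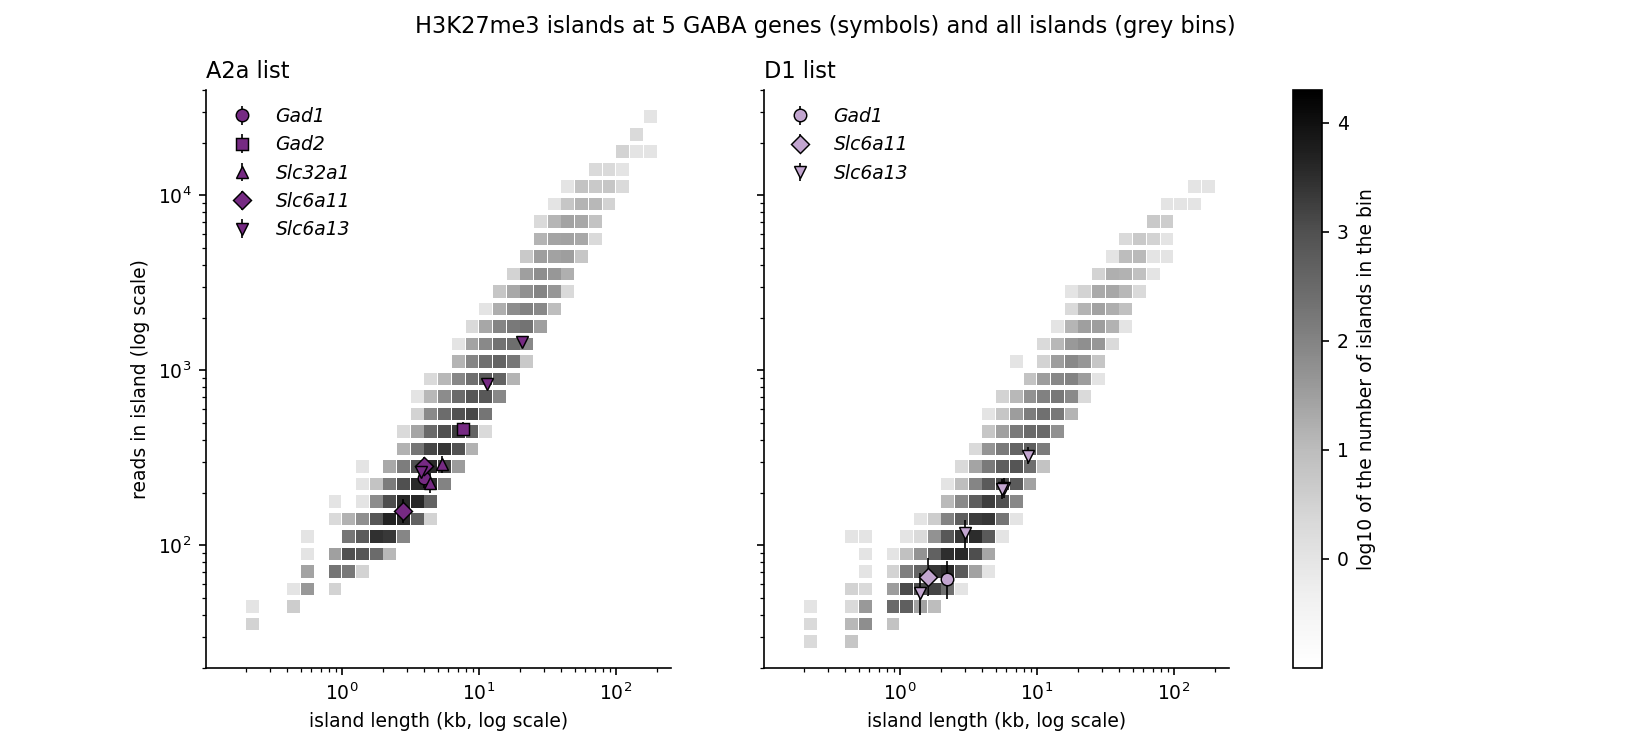
Reads against length (log scales) for each H3K27me3 island at the promoter or body of the genes, with exact Poisson 95% intervals, over all islands of the list in grey bins; *Abat* has none. The *Gad2* and *Slc32a1* islands appear in the A2a panel alone, and the *Gad1* and *Slc6a11* islands of D1 hold 64 and 66 reads, below the list median of 104.

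Both marks met at the promoter of *Gad2*, *Slc32a1* and *Slc6a11* in A2a and at 0 of the 6 in D1, where 9.53% and 5.56% of protein-coding genes carried both. At *Gad2* and *Slc6a11* the A2a island covered the whole H3K4me3 peak. In D1 the single place where the marks overlapped was the principal start of *Gad1*. Pooled nuclei do not show whether 2 marks lie on the same chromosome copy, and a mark on fewer nuclei and a weaker mark on all of them cannot be told apart. The D1 H3K27me3 list held fewer reads, 7878685 in islands over 184 Mb (42.8 per kb) against 22091634 reads over 301.0 Mb (73.4 per kb) in A2a. The part of depth in the absence of D1 islands at *Gad2* and *Slc32a1* was not tested.

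Markers of the cell types were read by the same rule. Of 4 A2a neuron markers, 4 had a promoter island in the D1 list (7800 to 45000 bp) and 2 in the A2a list (2600 and 3400 bp). Of 4 D1 neuron markers, 4 had one in the A2a list (4800 to 61000 bp) and 3 in the D1 list (1000 to 2800 bp), so the islands followed the labels of the lists. H3K4me3 was present without H3K27me3 at the promoters of all 6 markers of striatal projection neurons in both lists, though a D1 island met the start of another transcript of *Pde10a*. All 5 interneuron markers, another GABAergic class, had an island and no H3K4me3 peak in both. Astrocyte markers, which bear on *Slc6a11*, had an H3K4me3 promoter peak at 2 of 5 genes in each list (*Gja1* and *Sox9*, percentiles 30.0 and 50.2 in A2a, 4.46 and 40.4 in D1). The defining *Aqp4*, *Gfap* and *Aldh1l1* had no peak there. Promoter islands were present at 3 of the 5 in A2a and 2 in D1. *Gja1* and *Sox9* had islands in both lists, of 25.6 and 18.4 kb in A2a and 20.6 and 16.6 kb in D1. With the start of any transcript, *Aqp4* and *Aldh1l1* had a peak in A2a and none in D1, as *Slc6a11* did, which made 4 of 5 astrocyte markers in A2a and 2 in D1. Peaks were also present at 3 of 5 oligodendrocyte markers in each list, and at 1 of 4 microglia markers in A2a and 0 in D1. Of 4 markers of cortical excitatory neurons, 1 had a peak in A2a and 2 in D1. With the start of any transcript, 4 oligodendrocyte markers had a peak in A2a and 3 in D1. For microglia markers these counts were then 3 and 1 (*Cx3cr1* and *Csf1r* in A2a alone), and for cortical excitatory markers 2 and 4. Markers of endothelial, mural and meningeal cells, which bear on *Slc6a13*, had a peak at 0 of 5 genes in each list. A promoter island was present at 4 of these 5 in each list, as at *Slc6a13*. The part of glial nuclei in the A2a peak at *Slc6a11* was not tested.

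The other GABA pathway genes were a list of 20 transporters and enzymes of GABA, glutamate and glutamine. H3K4me3 was present at 16 promoters in A2a (80%) and 15 in D1 (75%), against 58.2% and 55.8% of all protein-coding genes. H3K27me3 was present at 5 (25%) and 4 (20%), near the 21.6% and 15.3% of all protein-coding genes. Islands without an H3K4me3 promoter peak were found in both lists at *Slc6a12*, *Slc38a3* and *Slc38a5*, the last 2 of which encode glutamine transporters. With the start of any transcript, *Slc38a3* had a peak in A2a. *Slc1a3*, the astrocytic glutamate transporter GLAST, had both marks in both lists, with islands of 20.2 kb in A2a and 17.8 kb in D1. *Slc1a2*, the glutamate transporter GLT1, had an H3K4me3 peak in both and, in A2a alone, a promoter island 5.80 kb long that held 420 reads. The nearest D1 island lay 2.14 kb from that promoter window, nearer than at *Gad2*. *Maob*, a monoamine oxidase of a minor route to GABA, had a weak peak in A2a alone (−log10 q 10.2), and *Aldh1a1*, an aldehyde dehydrogenase of another such route, had neither mark at its 5′ end in either list, and an island at the start of another transcript in both.

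Further lists give the setting of the 6 genes, 2 of which belong to the first list. Their background is the same, 58.2% (A2a) and 55.8% (D1) of protein-coding genes for H3K4me3 and 21.6% and 15.3% for H3K27me3. The SLC6 family of 21 transporter genes had H3K4me3 at 10 promoters in A2a and 8 in D1, and H3K27me3 at 12 and 9. Besides *Slc6a11*, *Slc6a20a* had a promoter peak in A2a alone, and *Slc6a7*, *Slc6a9* and *Slc6a19* had a promoter island in A2a alone, with D1 islands 5.58, 93.1 and 2.34 kb from the respective windows. Of 8 regulators of the GABAergic fate, such as *Dlx1*, *Dlx2*, *Dlx5* and *Dlx6*, 8 had a promoter island in A2a and 7 in D1. Median lengths were 29.0 and 25.0 kb, with *Dlx1* and *Dlx2* under the same island in each list. In A2a the shortest of these islands, 10400 bp, was longer than the islands at *Gad1*, *Gad2* and *Slc32a1*. In D1 the shortest, at *Dlx6* and *Dlx5*, were 2400 and 2800 bp, close to the 2200 bp of the D1 island at *Gad1*. H3K4me3 promoter peaks were present at 7 of the 8 regulators in A2a and 5 in D1. *Dlx1* and *Gsx2* had a promoter peak in A2a alone, but a D1 peak lay 0.17 kb outside the *Dlx1* window and met the start of another transcript. Of 17 genes of other transmitters, 14 had a promoter island in each list and 2 an H3K4me3 peak. *Slc6a9*, the glycine transporter, had its island in A2a alone and *Dbh*, the enzyme that makes noradrenaline, in D1 alone. *Gad2* and *Slc32a1* therefore differed from most genes of other transmitters in carrying H3K4me3 in both cell types, and the difference was not tested.

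**Figure D4:**
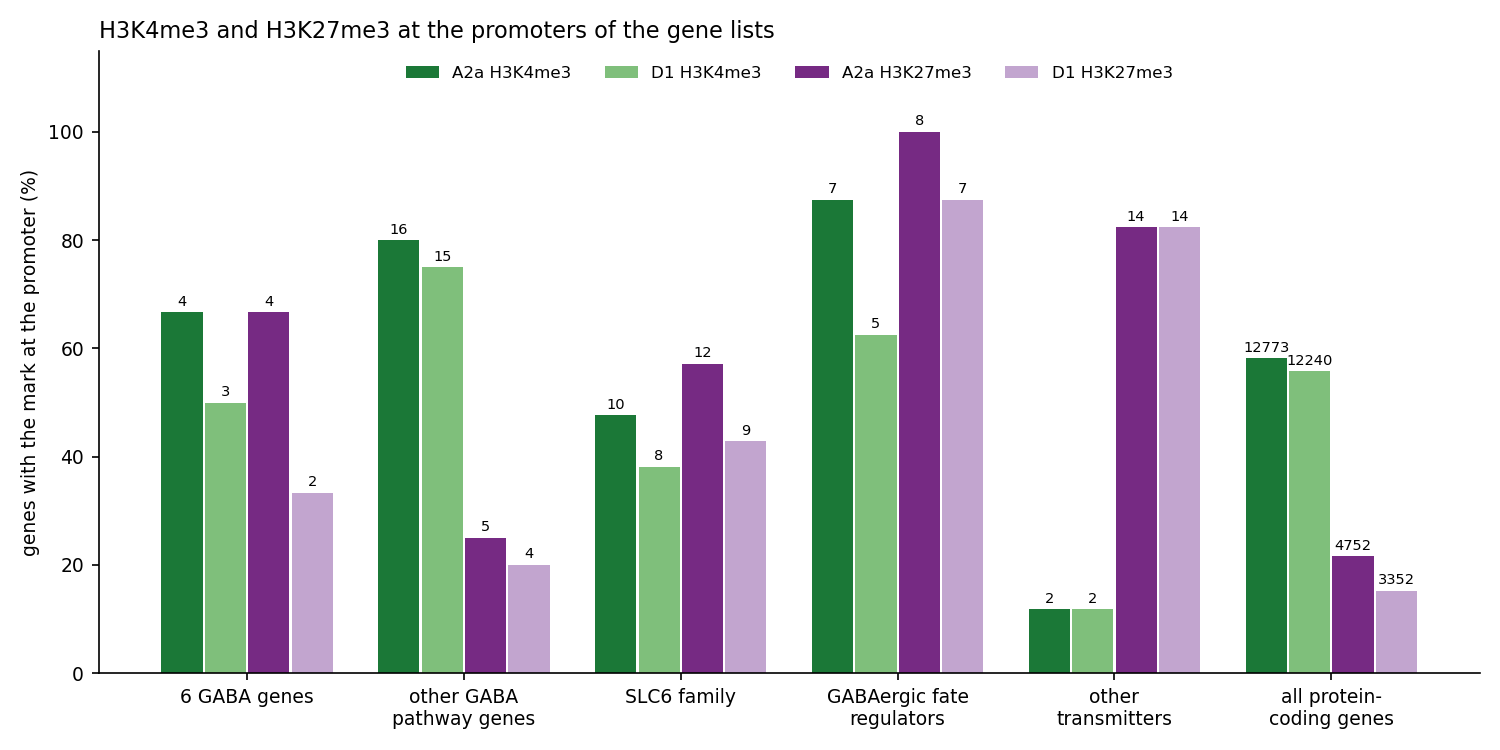
Percent of genes with H3K4me3 (green) or H3K27me3 (purple) at the promoter in the A2a (dark) and D1 (light) lists, for the 6 GABA genes, 4 further gene lists and all protein-coding genes; the number of genes stands above each bar. Among the 6 GABA genes, 4 and 3 had H3K4me3 and 4 and 2 had H3K27me3, while genes of other transmitters had H3K27me3 at 14 of 17 promoters in both lists.

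Genes within 50 kb of the 6 genes differed from them at several places. *Slc6a13* lay among *Usp18*, *Slc6a12* and *Iqsec3*, all of which had promoter islands in both lists. *Usp18* and *Iqsec3* also had H3K4me3 promoter peaks in both lists, and *Slc6a12* had none. *Abat* lay among *Mettl22*, *Tmem186*, *Pmm2* and *Carhsp1*, all with H3K4me3 peaks and no island in both lists. At *Slc32a1*, the islands did not extend to *Actr5*, which begins 9.14 kb past the end of the gene and had an H3K4me3 peak and no promoter island in either list, and *Ppp1r16b* had neither mark. *Erich2*, upstream of *Gad1*, had both marks in both lists. *Myo3a*, which ends 3.95 kb upstream of *Gad2*, had promoter islands of 2.80 kb in A2a and 3.60 kb in D1, and no peak.

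Likeness was measured over 4 values, the percentile among protein-coding genes of the bp covered by each list within 10 kb of the 5′ end. *Gadd45g*, *Mycn* and *Nxt1* were nearest to *Gad2*, at distances of 1.49, 1.56 and 2.46 percentile points. *Flrt2*, *Gadd45g* and *Efna5* were nearest to *Slc32a1* (2.62, 2.87 and 3.20), so *Gadd45g* stood beside both. *Acsbg1*, *Anxa3* and *H2-K1* were nearest to *Slc6a11* (2.84, 3.52 and 4.93). The closest genes to *Slc6a13* were *Clic5*, *Mpzl2* and *Chst13*, at most 0.306 points away, and those to *Abat* were *Mcl1*, *Akirin1* and *Cpne5*, at most 0.382 points away. *Zc3h15*, *Scn9a* and *Timm21* came nearest to *Gad1* (3.22, 4.37 and 4.52), for which the span ends within its main peak.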

How the data were processed

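CnR libraries from A2a and D1 nuclei were analysed as 4 deposited lists, each of 2 pooled replicates. The authors mapped reads to mm10 (GRCm38) with bowtie2 (version 2.1.0), left out duplicates and reads of a mapping quality below 20, and used inserts from 150 to 500 bp in size. For H3K4me3 the authors used MACS2 (q-value threshold 0.01) and deposited each peak with its fold enrichment over local background and its −log10 q-value. For H3K27me3 they used SICER (window 200 bp, gap 600 bp, false discovery rate 0.01) against a control whose name is not given in the sources used here. The deposited value of an island is its count of reads, not normalized. Library totals are not part of the lists, so depth is unknown beyond reads in islands. The other samples were not analysed here.

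Genes and transcripts came from GENCODE M21, and coordinates are those of the lists, counted from 1. Percentiles are the share of a list with a lower value, with ties counted at mid-rank. Likeness in strength between lists was taken within 10% of −log10 q or reads. Intervals are exact Poisson at the 95% level and cover counting error only. No test was made, since there is 1 list per group, and shares over all protein-coding genes are given as background. The members and gene lists were chosen with earlier results of these data known. All 6 members are named. Of the other lists, genes are named that have a promoter island or lack an H3K4me3 promoter peak (pathway list), that neighbour a member within 50 kb, that differ between A2a and D1 (marker lists are given as counts), or that are the 3 nearest by likeness. Other names are examples, and some genes of these lists are not reported here. Distances at *Gad1* from the principal transcript and ranks by width were added after seeing the data. The overlap and percentile code was checked on simulated data. The 8 alternatives tried changed the window, start site, overlap, thresholds, merging, number of regions and measure of strength. Tools were pysam (version 0.24.0), scipy (version 1.17.1), matplotlib (version 3.10.9), numpy (version 2.4.6) and Python (version 3.11.15).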

Additional observations from a re-analysis of the deposited data

How the results depend on the processing

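Of 66 recomputed counts of genes, D1 counts with equal numbers of regions could not change, as the D1 lists were the shorter ones. In all, 65 counts stayed within 1.5 times the reported count. The exception was the number of the 6 genes with an H3K27me3 promoter island in D1, which fell from 2 to 1 when islands under 2000 bp were left out, since the *Slc6a11* island of 1.60 kb is then removed. Of 31 values of single genes, 26 stayed the same, either with equal bp covered or with the same peak as the strongest. With islands within 5 kb merged, H3K27me3 in A2a covered all 4982 bp of *Slc32a1* (3748 bp unmerged) and all 37507 bp of *Slc6a13* (31974 bp unmerged), and in D1 28307 bp of *Slc6a13* (20974 bp unmerged). Without islands under 2000 bp, *Slc6a11* had 0 bp and *Slc6a13* 19574 bp in D1. The gap between the *Slc32a1* islands and the number of *Slc6a13* islands thus depend on the joining distance of the caller.

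No paired analysis was possible because each list pools its replicates, so the deposited values carry no replicate number. No replicate was left out in turn, as the lists hold none on its own.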
